A study of Mus musculus with 4 samples.

Results

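Ribosome production was followed through 55 genes for RNA polymerase I and for the proteins that process and assemble its product, in CD4 T cells given a Tox retrovirus (Tox RV) or an empty vector retrovirus (EV RV). The genes were chosen by name from a fixed list, with no measured value in the rule, and are 55 of the 24369 genes listed for each library. The list itself was made with earlier results of these data known. All 55 had an expected count of 10 or more in at least 2 libraries, and all 55 were among the 14143 genes tested. None of the 55 differed between Tox RV and EV RV past an adjusted p-value of 0.05. The 47 with a higher mean in Tox RV were higher by less than 2-fold, and most of that difference came with 1 control library, replicate 1 of EV RV, in which 44 of the 55 had their lowest level.

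RNA polymerase I transcribes a single kind of product, the long precursor of the ribosomal RNAs, in the nucleolus. Small nucleolar RNAs and their protein partners, together called snoRNPs, modify and guide the cutting of this precursor, and a large set of assembly factors folds it with ribosomal proteins into the small and the large subunit. The whole program is switched on strongly when a naive T cell is activated and starts to grow, and the transcription factor Myc is a well known driver of it.

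All 4 libraries came from naive CD4 T cells of the spleen of WT C57BL/6 mice, cultured without polarizing cytokines on plate-bound anti-CD3 at 2 µg/ml with soluble anti-CD28 at 4 µg/ml and recombinant human IL-2 at 100 U/ml. On day 2 the cells received MSCV-IRES-eGFP (EV RV) or MSCV-Tox-IRES-eGFP (Tox RV). On day 5 they were restimulated for 5 h, through CD3 by the methods and through CD3 and CD28 by the design text, and sorted as CD4 GFP+. The treatment label names anti-CD28 where the methods name IL-2. In this model the viral promoter of the vector drives Tox in every GFP+ cell, the controls carry the same vector without the Tox cDNA, and the cells also have their own Tox gene. There were 2 libraries per group, from 2 mice per group, called here by their replicate numbers EV1 and EV2 for EV RV and Tox1 and Tox2 for Tox RV, and the age of the mice is not given in the sources used here. With 2 libraries against 2, an exact permutation test cannot go below a two-sided p of 0.333, so tests come from the edgeR fit across all genes.

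The libraries held between 46989997 and 74548723 expected counts. *Tox* stood at 11.7 counts per 1000000 (CPM, scaled by TMM) in EV1, 5.73 in EV2, 121 in Tox1 and 99.9 in Tox2, in the direction the labels give. The 7 markers of CD4 T cells summed to between 1517 and 2256 transcripts per 1000000 (TPM), with *Cd4* itself between 174 and 250 TPM. The summed markers of CD8 T cells lay between 3.32 and 4.98 TPM, those of B cells between 1.66 and 2.28 TPM with *Ms4a1* and *Pax5* at 0, and those of myeloid cells between 5.51 and 7.95 TPM. The 5 NK cell markers summed to 54.3 TPM in EV1, 9.90 in EV2, 31.3 in Tox1 and 6.82 in Tox2, with *Ncr1* at 0 counts in all 4. EV1 stood apart from the other 3 libraries. On the first principal component, which held 65.9% of the variance, it lay at -39.3 and the others between 5.46 and 17.9.

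The listed gene *Rn45s* stands for the ribosomal RNA precursor that RNA polymerase I makes. Reads of mature ribosomal RNA, which is cut from this precursor, and reads of the precursor itself were not told apart. *Rn45s* took 24.7% of all counts in EV1, 11.97% in EV2, 10.3% in Tox1 and 7.14% in Tox2. How ribosomal RNA was removed during library preparation is not given in the sources used here, and its part in this share was not tested. As CPM it was 275623 in EV1, 117257 in EV2, 100348 in Tox1 and 67481 in Tox2. The log2 fold change of Tox RV against EV RV was -1.23 with a standard error of 0.42 (edgeR unadjusted p = 0.0275, adjusted p = 0.897), and -0.49 without EV1. Both Tox RV libraries were below both controls, but the controls differed from each other by 1.23 on the log2 scale, as much as the groups did.

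Across the 55 genes together, the summed level was 5002 TPM in EV1, 6481 TPM in EV2, 6627 TPM in Tox1 and 6189 TPM in Tox2. EV2 thus lay between the Tox RV libraries, and EV1 below all 3. In bulk samples, fewer cells of a type and less RNA per cell cannot be told apart. The share of all counts that fell on the 55 genes had the same low library, at 0.631% in EV1, 0.880% in EV2, 0.948% in Tox1 and 0.889% in Tox2. The total in this share includes *Rn45s*, at 24.7% of counts in EV1 and 11.97% in EV2, so part of the low share in EV1 follows from *Rn45s*.

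Fold changes were small. Over the 55 genes the log2 fold change had a median of 0.24, against 0.0036 over all genes tested, and the values ran from -0.65 for *Ncl* to 0.52 for *Noc3l*. Of the 55, 47 had a log2 fold change above 0, where 50.4% of all genes tested did, and 8 had one below 0. These 8 were *Tcof1*, *Ncl*, *Mybbp1a*, *Gar1*, *Utp20*, *Imp3*, *Noc4l* and *Ddx51*. None passed 2-fold in either direction, which 3.38% of all genes tested did.

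By the edgeR quasi-likelihood test 0 of the 55 passed an adjusted p-value of 0.05, where 0% of all genes tested passed, and the lowest adjusted p-value among the 55 was 0.897. *Tox* itself did not pass by this test, at a log2 fold change of 3.68 (edgeR adjusted p = 0.490, DESeq2 adjusted p = 3.79e-24). The absence of calls by edgeR is thus not evidence of equal levels. At an unadjusted p below 0.05, 1 of the 55 was called lower, *Ncl*, where 2.55% of all genes tested were called lower. None of the 55 was called higher at that level, where 1.07% of all genes tested were. DESeq2 called 0 of the 55 at an adjusted p-value of 0.05, where 0.121% of the genes it tested were called, and *Ncl* alone at an unadjusted p below 0.05, where 3.21% were.

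In CPM, Tox1 and Tox2 were both higher than EV1 and EV2 in 23 of the 55 and in 18.6% of all genes tested. In 2, *Ncl* and *Imp3*, both Tox RV libraries lay below, where 17.4% of all genes tested did so. In the other 30 the groups overlapped. These counts depended on the scale. In TPM, 11 of the 55 had both Tox RV libraries above, where 11.6% of all genes tested did, and 5 had both below, where 23.2% did.

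**Figure D1:**
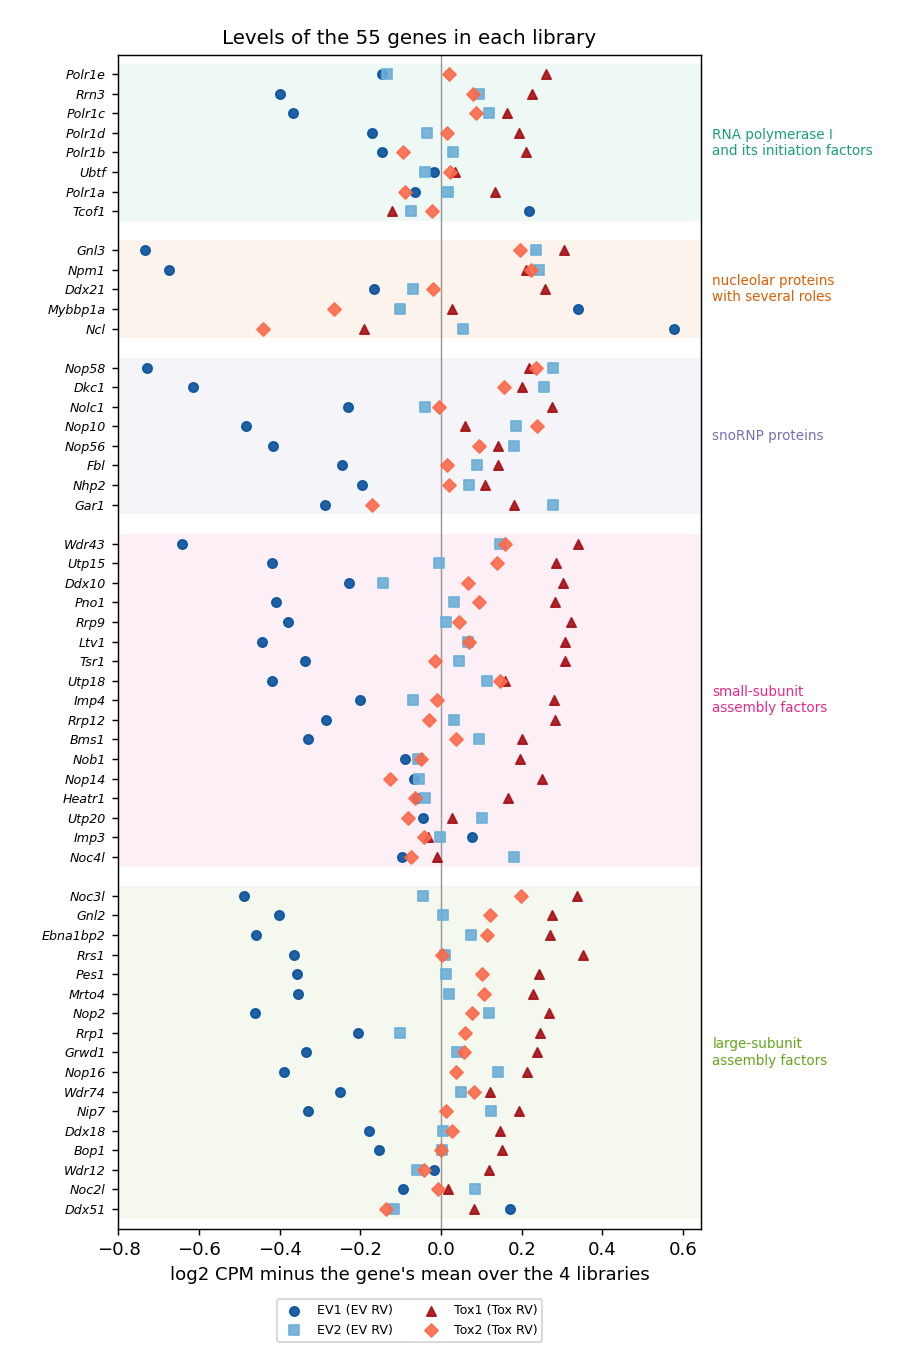
Level of each of the 55 genes in each library, as log2 CPM minus the gene's own mean over the 4 libraries (x axis), with genes in rows grouped by role and ordered by fold change within a role. EV1 (dark blue circles) is the lowest point in 44 rows, while EV2 (light blue squares) mostly lies near the Tox RV points.

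The control replicates differed from each other mostly in 1 direction in these genes. EV1 was the lowest of the 4 libraries in 44 of the 55, where it was lowest in 37.0% of all genes tested, and the highest in 5, where it was highest in 37.0%. The 5 were *Tcof1*, *Ncl*, *Mybbp1a*, *Imp3* and *Ddx51*. EV1 was below EV2 in 48 of the 55 (49.7% of all genes tested), with a median log2 difference of -0.34. In 41 of the 55 the difference between the controls was larger than the log2 fold change, a share near that of all genes tested, 70.3%. The Tox RV replicates also differed in 1 direction. Tox1 was above Tox2 in 51 of the 55 (50.5% of all genes tested), with a median log2 difference of 0.16.

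Set against EV2 alone, little of the difference was left. Both Tox RV libraries were above EV2 in 24 of the 55, where 36.9% of all genes tested were, and both were below it in 10, where 33.5% were. Fitted without EV1, the median log2 fold change of the 55 was 0.070 and 38 of them were above 0, where 50.5% of all genes were. Fitted without EV2, the median was 0.42 and 50 were above 0. An unadjusted p below 0.05 was then reached by 31 of the 55, where 29.7% of all genes reached it. Then 6 of the 55 passed an adjusted p-value of 0.05: *Npm1*, *Gnl3*, *Nop58*, *Dkc1* and *Wdr43* with a higher level in Tox RV, where 1.19% of all genes passed in that direction, and *Ncl* with a lower level, where 2.98% did. Their log2 fold changes in that fit were 0.80 to 0.99 for the first 5 and -0.88 for *Ncl*. Without Tox1 and without Tox2 the median was 0.13 and 0.32.

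**Figure D2:**
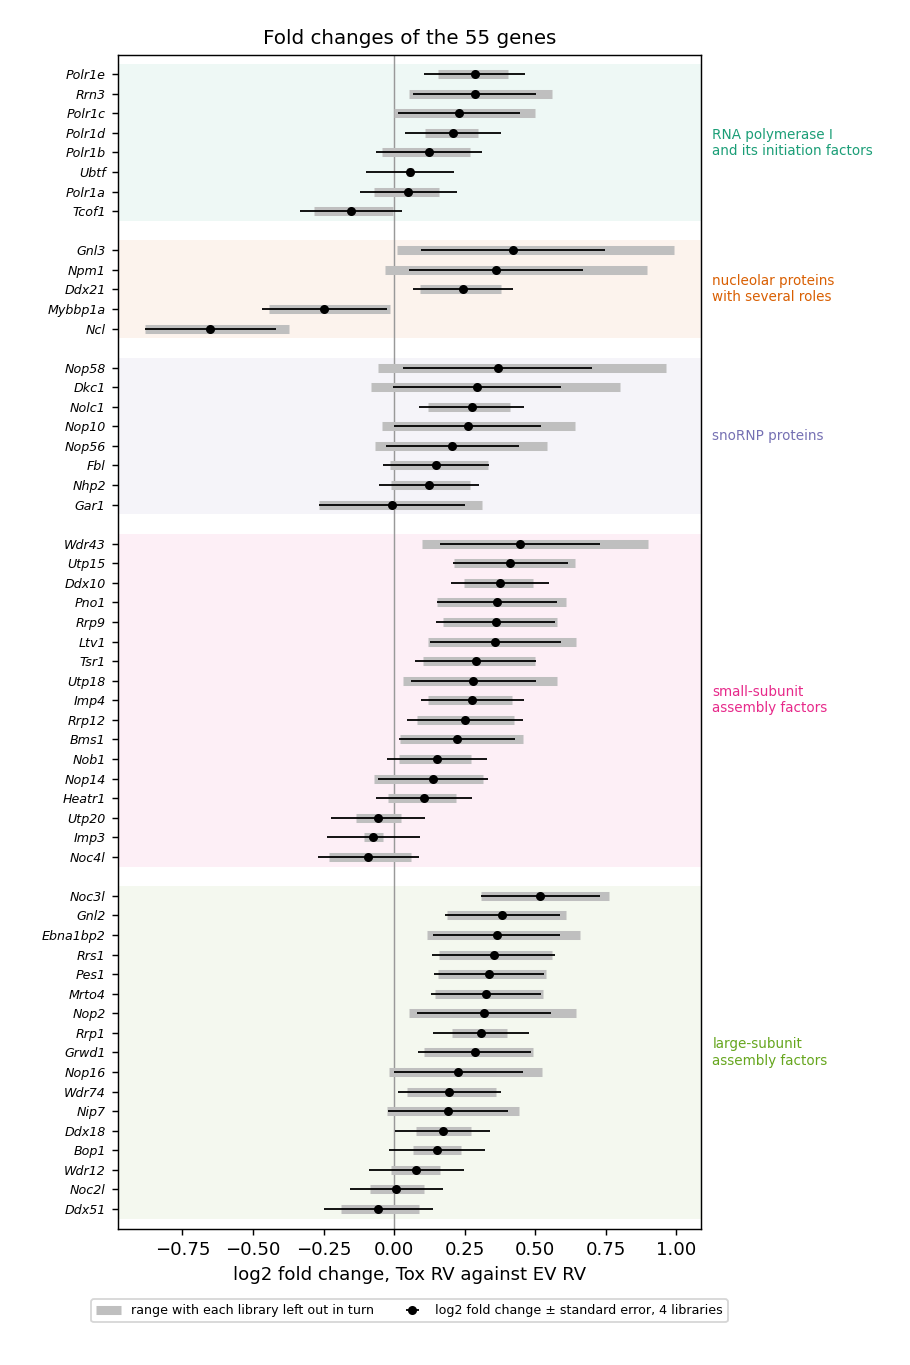
Log2 fold change of Tox RV against EV RV for each of the 55 genes (points, with bars of 1 standard error from the edgeR fit) and the range of the same value when each library was left out in turn (grey). The points run from -0.65 (Ncl) to 0.52 (Noc3l), and the widest grey ranges, of Nop58, Gnl3 and Npm1, reach from about 0 without EV1 to above 0.89 without EV2.

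RNA polymerase I and the factors that start its transcription had the smallest differences by role, with a median log2 fold change of 0.17 over 8 genes (0.042 without EV1). In 3 of the 8, *Polr1d*, *Polr1e* and *Ubtf*, both Tox RV libraries were above both EV RV libraries in CPM (18.6% of all genes tested). In none were both below (17.4% of all genes tested). *Polr1d*, a small subunit that RNA polymerase I shares with RNA polymerase III, was the most abundant of the 8 per length, with a mean of 233 TPM. It was at 114 CPM in EV1, 125 in EV2, 146 in Tox1 and 129 in Tox2, a log2 fold change of 0.21 with a standard error of 0.17. Its groups did not overlap in CPM, but the higher control and the lower Tox RV library were close, and in TPM its groups overlapped.

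*Polr1e*, a subunit of the heterodimer on the surface of RNA polymerase I, was the least abundant of all 55 genes, with a mean of 12.4 TPM. It was at 23.9 CPM in EV1, 24.1 in EV2, 31.7 in Tox1 and 26.9 in Tox2. Here the controls were nearly equal and both Tox RV libraries were above them, with a log2 fold change of 0.29 and a standard error of 0.18 (adjusted p = 0.897). It kept a log2 fold change of 0.27 without EV1. *Polr1a*, the largest subunit, with 180, 191, 207 and 177 CPM in EV1, EV2, Tox1 and Tox2, had overlapping groups, as had *Polr1b*, the second largest subunit, with 102, 115, 131 and 106 CPM in that order. *Polr1c*, the other small subunit shared with RNA polymerase III, had overlapping groups too, with 35.6, 49.8, 51.4 and 48.8 CPM.

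*Ubtf*, the factor that binds ribosomal DNA and keeps its genes open, had nearly the same level in all 4 libraries. It was at 354 CPM in EV1, 348 in EV2, 367 in Tox1 and 364 in Tox2. Its log2 fold change was 0.06 with a standard error of 0.16, and -0.03 on the TPM scale, where the groups overlapped. *Rrn3*, the factor that makes RNA polymerase I competent to start and through which growth signals act on it, was at 82.8 CPM in EV1, 117 in EV2, 128 in Tox1 and 116 in Tox2. EV1 alone was low, and the log2 fold change of 0.29 (standard error 0.22) became 0.054 without it. *Tcof1*, which joins transcription of ribosomal DNA with processing of its product, was highest in EV1, at 188 CPM, with 153 in EV2, 148 in Tox1 and 159 in Tox2.

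The nucleolar proteins with several roles differed from each other in direction. Among the 5, 3 had a log2 fold change above 0 and 2 below, and the median of 0.24 became -0.016 without EV1. *Npm1*, nucleophosmin, a histone and ribosome chaperone that is among the most abundant nucleolar proteins, had a mean of 1562 TPM, or 25.7% of the summed TPM of all 55 genes. It was at 747 CPM in EV1, 1410 in EV2, 1378 in Tox1 and 1390 in Tox2. EV2 lay a little above both Tox RV libraries, and EV1 far below all 3. The log2 fold change was 0.36 with a standard error of 0.31, and -0.03 without EV1.

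*Gnl3*, nucleostemin, a GTPase of dividing cells that acts in pre-ribosome processing, was likewise low in EV1 alone, with 73.3 CPM in EV1, 143 in EV2, 151 in Tox1 and 140 in Tox2. Its log2 fold change of 0.42 (standard error 0.33) became 0.011 without EV1. *Ddx21*, an RNA helicase that acts both on RNA polymerase I and on RNA processing, was at 327 CPM in EV1, 349 in EV2, 438 in Tox1 and 362 in Tox2. Its groups did not overlap, and its log2 fold change was 0.24 with a standard error of 0.18.

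*Ncl*, nucleolin, a chaperone of the ribosomal RNA precursor, went the other way. It was at 585 CPM in EV1, 407 in EV2, 343 in Tox1 and 289 in Tox2. Both Tox RV libraries were below both controls. The log2 fold change was -0.65 with a standard error of 0.23 (edgeR unadjusted p = 0.0320, adjusted p = 0.897), a difference that did not pass the adjusted threshold. It was -0.37 without EV1 and -0.88 without EV2. Because the groups did not overlap, leaving out 1 library could hardly change the direction. Its mean of 80.1 TPM is low for its CPM because the transcript in the files is 8257 bases long, with 5978 bases in its longest exon in the annotation. *Mybbp1a*, a nucleolar protein that binds Myb family proteins and represses ribosomal RNA transcription, was likewise highest in EV1, with 436 CPM in EV1, 321 in EV2, 351 in Tox1 and 287 in Tox2. Its groups overlapped, with a log2 fold change of -0.25 and a standard error of 0.22.

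*Ncl* and *Imp3* among the 55, and *Rn45s* and *Myc* outside them, shared 1 order of the libraries, highest in EV1, then EV2, Tox1 and Tox2. *Myc* was at 226 CPM in EV1, 166 in EV2, 147 in Tox1 and 117 in Tox2, with a log2 fold change of -0.57 and a standard error of 0.23 (edgeR unadjusted p = 0.0472, adjusted p = 0.897). Most of the 55 did not have this order, since EV1 was the lowest library in 44. The likeness was noticed after the values were seen, and with 4 libraries it is a description.

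**Figure D3:**
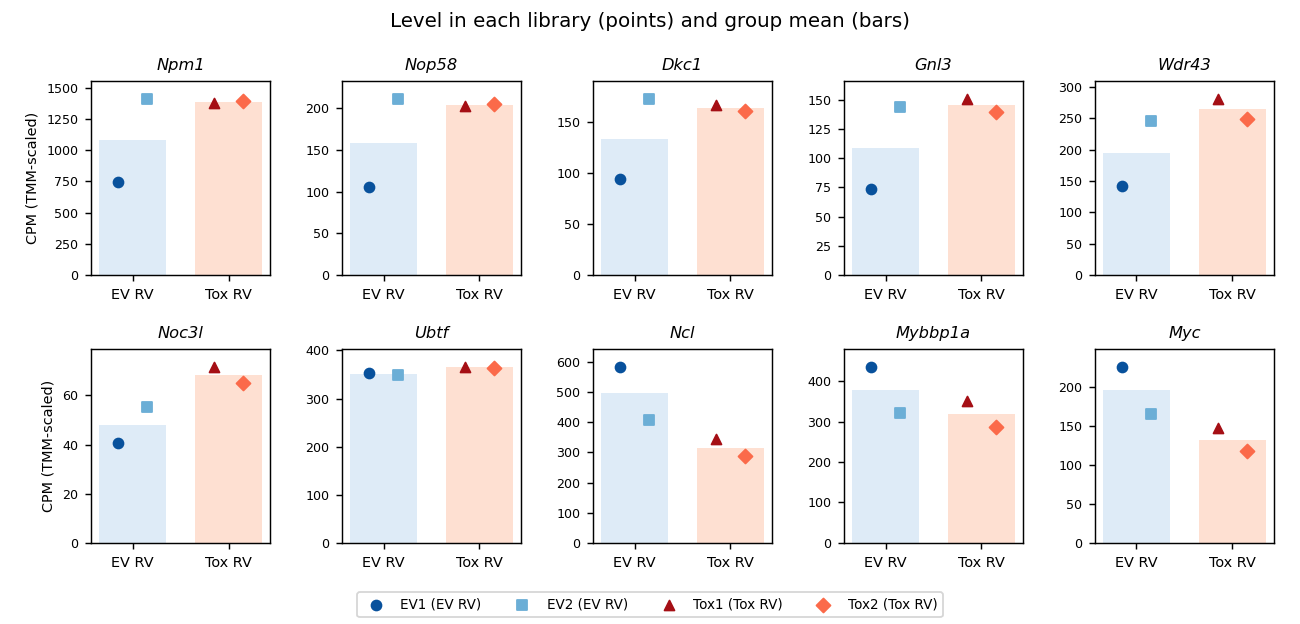
CPM of 9 of the 55 genes and of Myc in each library (points) with the mean of the 2 libraries of a group (bars), on axes that start at 0. For Npm1, Nop58, Dkc1 and Gnl3 EV2 sits with the Tox RV libraries, for Noc3l both Tox RV libraries are above both controls, and for Ncl and Myc both are below.

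Among the snoRNP proteins EV1 was the lowest library in all 8 (37.0% of all genes tested), by a median of 0.58 on the log2 scale below EV2. The median log2 fold change was 0.23 with all libraries and -0.050 without EV1, when 1 of the 8, *Nolc1*, was above 0. *Nop58*, a core protein of the box C/D snoRNPs that methylate ribosomal RNA, had the widest gap between the controls of all 55 genes, at 1.01 on the log2 scale. It was at 105 CPM in EV1, 211 in EV2, 203 in Tox1 and 205 in Tox2, with a log2 fold change of 0.37 and a standard error of 0.33. EV2 was above both Tox RV libraries.

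The same held for its partner *Nop56*, also a box C/D core protein and the second most abundant of the 55 genes per length, with a mean of 308 TPM. It was at 254 CPM in EV1, 384 in EV2, 374 in Tox1 and 362 in Tox2, with a log2 fold change of 0.21 (standard error 0.24) that became -0.07 without EV1. *Fbl*, fibrillarin, the methyltransferase of the same particles, was at 92.3 CPM in EV1, 117 in EV2, 121 in Tox1 and 111 in Tox2.

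The proteins of the box H/ACA particles, which make pseudouridine, had overlapping groups in all 4 cases. *Dkc1*, dyskerin, the pseudouridine synthase, was at 94.5 CPM in EV1, 173 in EV2, 166 in Tox1 and 161 in Tox2, a log2 fold change of 0.29 with a standard error of 0.30. *Nhp2*, one of its partners, was at 84.6 CPM in EV1, 102 in EV2, 105 in Tox1 and 98.3 in Tox2, a log2 fold change of 0.12 with a standard error of 0.18. Without EV1 these values were -0.08 and -0.01. Of the other partners, *Nop10* had 28.8, 45.9, 42.0 and 47.5 CPM and *Gar1* 13.7, 20.3, 19.0 and 14.9 CPM in EV1, EV2, Tox1 and Tox2. *Nolc1*, which escorts snoRNPs in the nucleolus, was the 1 snoRNP protein of the 8 with both Tox RV libraries above both controls, at 131 and 149 against 186 and 153 CPM. Over all genes tested this share was 18.6%. In TPM the groups of *Nolc1* overlapped, with 67.48 in EV2 and 67 in Tox2.

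The small-subunit assembly factors had a median log2 fold change of 0.28 over 17 genes, and 0.10 without EV1. In 9 of the 17 both Tox RV libraries were above both EV RV libraries in CPM, where 18.6% of all genes tested were. These were *Utp15*, *Utp18*, *Wdr43*, *Imp4*, *Rrp9*, *Ddx10*, *Nob1*, *Pno1* and *Ltv1*, with log2 fold changes from 0.15 to 0.45. In TPM the groups of *Utp18*, *Wdr43*, *Rrp9*, *Nob1* and *Ltv1* overlapped. Tox1 was above Tox2 in all 17, where 50.5% of all genes tested were.

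*Wdr43* and *Utp15*, both of the t-UTP part of the small-subunit processome that binds the precursor as it is made, had the largest log2 fold changes of the 17. *Wdr43* was at 142 CPM in EV1, 246 in EV2, 281 in Tox1 and 248 in Tox2, with 0.45 and a standard error of 0.29 for the log2 fold change. EV2 and Tox2 were nearly equal, so that the groups only just failed to overlap in CPM, and in TPM they overlapped. *Utp15* was at 61.5 CPM in EV1, 82.0 in EV2, 100 in Tox1 and 90.6 in Tox2, with 0.41 and a standard error of 0.20. Without EV1 the log2 fold changes were 0.10 and 0.21.

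*Rrp9*, a protein of the U3 snoRNP that makes the first cuts in the precursor, was the most abundant of the 17 per length, with a mean of 116 TPM. It was at 77.6 CPM in EV1, 102 in EV2, 126 in Tox1 and 104 in Tox2, a log2 fold change of 0.36 with a standard error of 0.21. *Ddx10*, an RNA helicase, had controls that were close to each other, with 59.5 CPM in EV1, 63.1 in EV2, 86.0 in Tox1 and 73.1 in Tox2, and log2 fold changes of 0.38 with all libraries and 0.33 without EV1. It was chosen for mention after its values were seen.

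*Imp4*, a protein bound to the U3 RNA, and *Imp3*, its partner in the same complex, had log2 fold changes of opposite sign, 0.28 and -0.07. *Imp4* was at 79.8 CPM in EV1, 87.4 in EV2, 111 in Tox1 and 91.1 in Tox2. *Imp3* was at 37.9 CPM in EV1, 35.8 in EV2, 35.1 in Tox1 and 34.9 in Tox2, with a standard error of 0.16 for the log2 fold change. The groups of *Imp3* did not overlap, but its difference was smaller than its standard error. The late factors of the small subunit, which act up to its release in the cytoplasm, were *Nob1*, the endonuclease of the last cut, with a log2 fold change of 0.15, its partner *Pno1* with 0.36, *Ltv1*, an export factor, with 0.36 and *Tsr1*, a protein that holds the subunit back from translation, with 0.29. Their standard errors lay between 0.18 and 0.23.

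In the other 7 of the 17 small-subunit factors that were not named so far, among them the large scaffold proteins *Heatr1* and *Utp20* and the GTPase *Bms1*, log2 fold changes ran from -0.09 for *Noc4l* to 0.28 for *Utp18*. *Utp18*, a processome protein, is the 1 of these 7 in which the groups did not overlap in CPM, with 63.6 CPM in EV1, 92.0 in EV2, 94.9 in Tox1 and 94.2 in Tox2. In TPM its groups overlapped.

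The large-subunit assembly factors had a median log2 fold change of 0.29 over 17 genes, and 0.093 without EV1. In 9 of the 17 both Tox RV libraries were above both EV RV libraries in CPM (18.6% of all genes tested). EV1 was lowest in 15 (37.0% of all genes tested). The 9 were *Pes1*, *Wdr74*, *Rrp1*, *Noc3l*, *Ddx18*, *Ebna1bp2*, *Gnl2*, *Grwd1* and *Mrto4*. In TPM the groups of *Wdr74*, *Ddx18*, *Ebna1bp2* and *Grwd1* overlapped. *Noc3l*, an early assembly protein also linked to DNA replication, had the largest log2 fold change of all 55. It was at 40.5 CPM in EV1, 55.1 in EV2, 71.8 in Tox1 and 65.2 in Tox2, a log2 fold change of 0.52 with a standard error of 0.21 (edgeR unadjusted p = 0.0511, adjusted p = 0.897). Without EV1 the log2 fold change was 0.31. EV2 was the higher control, so leaving out EV1 could not close the gap between the groups.

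*Gnl2*, a GTPase that works on the large subunit in the nucleus and belongs to the same family as *Gnl3*, was at 67.5 CPM in EV1, 89.5 in EV2, 108 in Tox1 and 97.0 in Tox2, a log2 fold change of 0.38 with a standard error of 0.20. *Mrto4*, a ribosome-like protein that holds the place of the stalk protein P0, was at 65.6 CPM in EV1, 84.9 in EV2, 98.2 in Tox1 and 90.3 in Tox2, a log2 fold change of 0.32 with a standard error of 0.20. In both genes Tox RV was above the higher control. *Nop2*, a methyltransferase of the large ribosomal RNA, instead had EV2 between the Tox RV libraries, with 126 CPM in EV1, 189 in EV2, 210 in Tox1 and 183 in Tox2, a log2 fold change of 0.32 with a standard error of 0.24.

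*Noc2l*, the partner of *Noc3l* in early large-subunit assembly, was the most abundant of the 17 per length, with a mean of 169 TPM. It was at 263 CPM in EV1, 298 in EV2, 285 in Tox1 and 279 in Tox2, with a log2 fold change of 0.01 and a standard error of 0.16. The groups overlapped, unlike those of its partner *Noc3l*, and the difference between the partners was not tested. Exons of *Noc2l* overlap those of the listed gene *Samd11* on the other strand over 598 bases, and strand use in counting is not stated. The 3 proteins of the PeBoW complex, which processes the large ribosomal RNA, had log2 fold changes of 0.34 for *Pes1*, 0.15 for *Bop1* and 0.08 for *Wdr12*, with standard errors of 0.17 to 0.20. The lowest log2 fold change of the 17 was -0.06, for the helicase *Ddx51*.

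**Figure D4:**
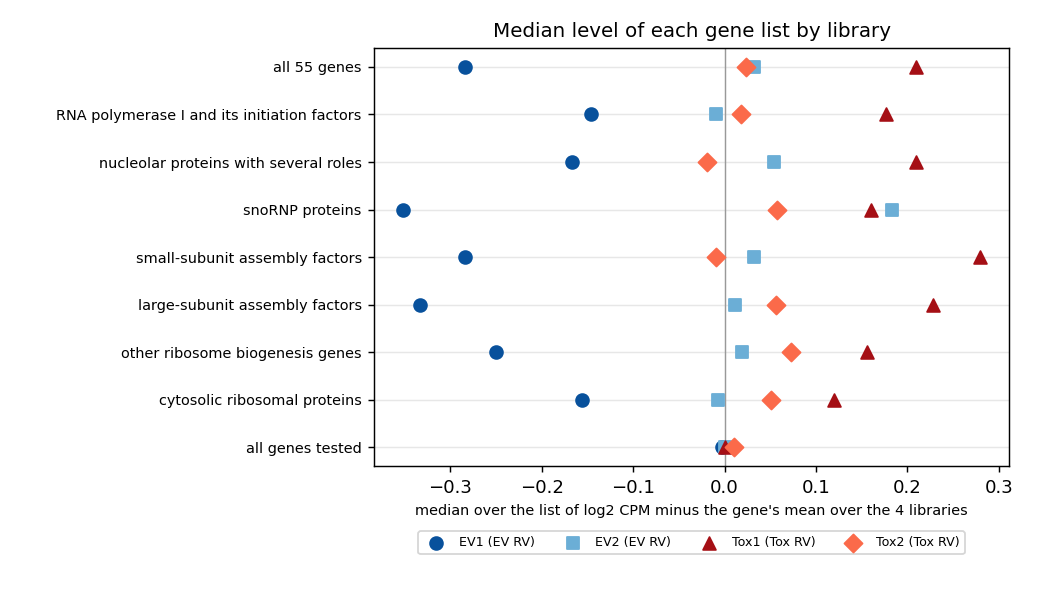
Median over each gene list of log2 CPM minus the gene's mean over the 4 libraries (x axis), for each library. For the 55 genes EV1 is at -0.28, EV2 at 0.033, Tox1 at 0.21 and Tox2 at 0.023, while the 4 libraries lie between -0.0026 and 0.011 for all genes tested.

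The plot of list medians by library shows that the wider pathway had the same low library. Of 90 other ribosome biogenesis genes, all tested, 82 had a log2 fold change above 0 and 52 had both Tox RV libraries above both controls, against 1 below, *Pelp1*. Over all genes tested, 50.4% were above 0, 18.6% had both Tox RV libraries above and 17.4% had both below. The median of the 90 was 0.21, and 0.093 without EV1. EV1 was the lowest library in 71 of the 90, against 37.0% of all genes tested. By edgeR 0 passed an adjusted p-value of 0.05, and 1, *Nsa2*, a nuclear factor of the large subunit, had an unadjusted p below 0.05. It was at 144 CPM in EV1, 186 in EV2, 254 in Tox1 and 222 in Tox2, a log2 fold change of 0.53 with a standard error of 0.20 (adjusted p = 0.897).

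Of 79 cytosolic ribosomal protein genes, the proteins that the assembly factors put in place, 74 had a log2 fold change above 0 and 50 had both Tox RV libraries above both controls, against 1 below, *Rps14*. The shares over all genes tested were 50.4%, 18.6% and 17.4%. The median of the 79 was 0.17, and 0.093 without EV1. EV1 was the lowest library in 60 of the 79, against 37.0% of all genes tested. By edgeR 0 passed an adjusted p-value of 0.05, and 1, *Rpl35*, with a log2 fold change of 0.49, had an unadjusted p below 0.05. Many ribosomal protein genes have processed copies in the genome. Copies of these 79 genes were not searched for, and their effect on the counts was not tested.

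Genes of activation and proliferation were set beside the 55. Of 13 genes induced by T cell receptor signals 6 were above 0, the median was -0.08 on the log2 scale, and EV1 was lowest in 3. Over all genes tested 50.4% were above 0, and EV1 was lowest in 37.0%. Of 12 proliferation genes, 9 were above 0 with a median of 0.08. None of the 12 had groups that did not overlap, where 18.6% of all genes tested had Tox RV above and 17.4% below. EV1 was lowest in 9 of the 12 and below EV2 in all 12 (49.7% of all genes tested), by a median of 0.82 on the log2 scale. Tox1 was below Tox2 in all 12, by a median of 0.50, whereas 51 of the 55 ribosome production genes had Tox1 above Tox2. The part of proliferation in the level of the 55 genes was not tested.

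The difference between the control replicates was also set beside transcript composition. The genes tested were cut into 5 equal bins of GC content. The median log2 difference between EV1 and EV2 was -0.17 in the bin of lowest GC content and 0.15 in the highest, whereas the 55 genes had medians from -0.53 to -0.27 in the 5 bins. After the median of genes of like GC content and length was subtracted, the median log2 difference between EV1 and EV2 was -0.29 for the 55. The median log2 fold change of Tox RV against EV RV, treated in the same way, was 0.22, with 49 above 0. This subtraction sets the middle of all genes tested near 0. The part of GC content and length in these differences was not tested.

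Many genes for ribosome production carry small nucleolar RNAs in their introns. In the annotation (GENCODE, mm10) 7 of the 55, or 12.7%, have snoRNA genes inside them on the same strand, where 1.29% of 19813 listed protein-coding genes do. They are *Dkc1*, *Gnl3*, *Ncl*, *Nop56*, *Nop58*, *Tsr1* and *Wdr43*. *Nop58*, for example, holds Snord70 at chr1:59691934-59692020 and Snord11 at chr1:59704790-59704873, both on the plus strand. Snora75 of *Ncl*, the snoRNA genes of *Gnl3* and some of those of *Nop56* and *Nop58* lie within annotated exons, the others within introns. The 7 host genes had a median log2 difference of -0.79 between EV1 and EV2, against -0.29 for the other 48, a median log2 fold change of 0.29 against 0.23, and -0.058 against 0.083 without EV1. *Ncl*, which holds Snora75 at chr1:86351169-86351301 and Snord82 at chr1:86356261-86356330 on the minus strand, is the 1 host of the 7 in which EV1 was the highest library. This grouping was made after the values were seen, and snoRNAs themselves were not measured as a class here.

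The sequence before the start sites was read to see what the 55 genes share outside the rule. RefSeq promoter windows (GRCm38.p6, the mm10 build, 250 bases before to 50 bases after the start) were found for 48 of the 55, as 56 windows of 32851. Their median GC content was 59.5%, against 52.7% for all windows. The E-box CACGTG, the letters that Myc and related factors bind, was in 21.4% of the windows of these genes and 7.15% of all windows. The ETS-type letters CCGGAAG (or CTTCCGG on the other strand) were in 35.7% and 8.86%. Both differences are descriptions of the sequence and say nothing of binding in these cells.

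Of the other letters searched on both strands, TCTCGCGA was in 7.14% of the windows of these genes and 0.995% of all windows, and ATGGCGGC in 8.93% and 2.24%. The GC box GGGGCGGGG was in 14.3% and 11.5%, the CCAAT box in 30.4% and 37.4%, and TATAAA in 3.57% and 13.6%. The NRF1 motif was in 1.79% and 0.971%, and the longer YY1 motif, which contains ATGGCGGC, in 1.79% and 0.633%. Of the 55 genes, 12 had CACGTG, among them *Rrn3*, *Nop2*, *Wdr43*, *Utp18*, *Pno1* and *Pes1*, and 19 had CCGGAAG, among them *Nhp2*, *Noc3l*, *Polr1e* and *Ebna1bp2*.

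The 250 bases before the start are printed for 4 named genes, 5′ to 3′ on the gene's strand, as examples of how the letters lie in these stretches. *Rrn3* has 2 E-boxes here, and its matches to the ETS-type letters lie across and after the start, beyond the printed stretch. *Nop2* has both kinds of letters, *Nhp2* the ETS-type letters and *Ncl* neither. Capitals mark CACGTG and CCGGAAG or CTTCCGG.
Rrn3, chr16:13780449-13780698, plus strand: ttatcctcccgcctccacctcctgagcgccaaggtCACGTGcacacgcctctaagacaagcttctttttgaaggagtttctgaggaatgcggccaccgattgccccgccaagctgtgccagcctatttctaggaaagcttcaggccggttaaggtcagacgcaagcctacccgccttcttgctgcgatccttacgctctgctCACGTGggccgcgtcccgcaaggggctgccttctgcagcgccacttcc
Nop2, chr6:125131633-125131882, plus strand: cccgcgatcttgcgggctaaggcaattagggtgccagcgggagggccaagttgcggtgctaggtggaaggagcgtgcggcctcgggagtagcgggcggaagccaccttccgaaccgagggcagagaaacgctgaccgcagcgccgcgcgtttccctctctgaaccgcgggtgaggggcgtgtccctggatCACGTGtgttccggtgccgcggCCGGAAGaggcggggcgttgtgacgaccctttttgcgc
Nhp2, chr11:51619523-51619772, plus strand: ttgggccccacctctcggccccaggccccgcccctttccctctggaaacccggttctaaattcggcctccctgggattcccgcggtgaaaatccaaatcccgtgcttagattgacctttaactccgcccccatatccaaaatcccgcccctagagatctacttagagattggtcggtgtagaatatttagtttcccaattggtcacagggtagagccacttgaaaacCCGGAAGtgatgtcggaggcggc
Ncl, chr1:86359456-86359705, minus strand: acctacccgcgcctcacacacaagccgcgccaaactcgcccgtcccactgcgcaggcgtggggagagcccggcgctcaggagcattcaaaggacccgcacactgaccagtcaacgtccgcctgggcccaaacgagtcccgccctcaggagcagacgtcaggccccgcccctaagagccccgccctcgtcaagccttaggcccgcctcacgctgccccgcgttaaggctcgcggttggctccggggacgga
Genes with EV1 lowest were found with and without these letters. *Nop58*, *Gnl3*, *Dkc1* and *Nop56* have no match in the same stretch, as *Ncl* has none, and EV1 was their lowest library.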

How the data were processed

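RNA-seq was measured in 4 libraries, 2 per group, grouped and numbered by the sample titles. By the methods and the submitters' processing notes, reads were checked with FastQC, aligned to mm10 transcripts with Bowtie (the notes also name Bowtie2) and quantified per gene with RSEM. Tool versions, strand use and the removal of ribosomal RNA are not given in the sources used here. The deposited expected counts are the authors' RSEM estimates per gene, not normalized, with 1 library per file. The deposited TPM values were computed by the authors with RSEM from the same counts and the effective transcript length. A further table of the whole series, named as TPM, was not used because its columns do not sum to 1000000.

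The main test was the edgeR 4.0.16 quasi-likelihood test in R 4.3.3, on counts rounded to integers (filterByExpr with a minimum count of 10, TMM scaling, no replicate block, Benjamini-Hochberg adjustment over 14143 genes). The methods name DESeq2 for this comparison, run here as an alternative (version 1.42.0), as was limma 3.58.1 on log2(TPM + 1) and log2(TPM + 0.1). The common biological coefficient of variation was 0.232. Standard errors were derived from the fold change and its F statistic. CPM served to compare libraries and TPM to compare genes. The scripts were first tested on simulated data with known changes. The methods name 2 individual mice per group, and p-values measure the spread between these libraries only.

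The 55 genes, their roles and the wider lists were chosen with earlier results of these data known. Values in every library were set to be given, within each of 5 roles, for the 2 genes with the highest mean TPM, the 2 with the largest absolute log2 fold change and the 1 with the largest difference between the EV RV replicates, for any gene with an unadjusted p below 0.05, and for *Tox*, *Rn45s* and *Myc*. This named 20 of the 55, and other genes were added after their values were seen. Near-identical copies were searched with blast 2.17.0 among the transcripts of the files (95% identity over 300 bases). The 2 matches found, *Noc2l* with *Samd11* and *Tsr1* with *Srr*, are overlaps on the opposite strand, and 13 of the 55 have some exon overlap with a listed gene of the other strand. Promoter letters were counted in RefSeq windows. The alternatives are named with their effects in the closing section.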

Additional observations from a re-analysis of the deposited data

How the results depend on the processing

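Over the 55 genes, the median stayed above 0 under every alternative run, from 0.164 with limma on log2(TPM + 1) to 0.36 with scaling by library totals, which moved the median of all genes to 0.12, and from 0.070 to 0.42 with each library left out in turn. No gene of the 14143 passed an adjusted p-value of 0.05, against 22 with DESeq2, 22 without a filter on low counts, 16 with the replicate number as a block and 1 to 600 with each library left out in turn, 600 of them without EV RV replicate 2. Of the 55, 0 passed, against 0 to 6 with each library left out in turn. At an unadjusted p below 0.05 it was 1 of the 55, against 0 with scaling by library totals, 2 without a filter on low counts, 2 with the replicate block and 0 to 31 with each library left out. Both Tox RV libraries lay above the controls in 23. That count was 32 with scaling by library totals, 17 with library totals without *Rn45s* and 11 with either pseudocount on TPM. Both lay below in 2, against 1 with scaling by library totals and 5 with either pseudocount on TPM. With each library left out these counts were 21 to 46 and 3 to 10. Fewer libraries separate more often, so these are not comparable with 23 and 2. Against EV2 alone, 36.9% of all genes tested had both Tox RV libraries above and 33.5% both below. The 21, without EV1, had scaling computed anew, where the scaling of all 4 libraries gave 24. A left-out library leaves 1 library in its group, which is then assumed to vary like the other group.

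With each library left out in turn, some directions reversed. For the roles and the 20 named genes, the low end of a range that reversed was always without EV RV replicate 1. Some genes outside the 20 were below 0 only without Tox RV replicate 1. These were *Polr1a* at -0.072, *Polr1b* at -0.044, *Heatr1* at -0.020, *Nop14* at -0.070 and *Wdr12* at -0.011. The median of the nucleolar proteins with several roles ranged from -0.016 to 0.36 and that of the snoRNP proteins from -0.050 to 0.46. The log2 fold change of *Npm1* ranged from -0.034 to 0.90, that of *Nop56* from -0.068 to 0.54, that of *Nhp2* from -0.010 to 0.27, that of *Nop58* from -0.058 to 0.96, that of *Dkc1* from -0.083 to 0.80 and that of *Noc2l* from -0.085 to 0.10, also below 0, at -0.012, without Tox RV replicate 1. On log2(TPM + 1) and log2(TPM + 0.1) *Ubtf* was at -0.027 and -0.027 and *Noc2l* at -0.072 and -0.073. *Noc2l* was at -0.032 with scaling by library totals without *Rn45s* and at -0.00047 with TMM without *Rn45s*, an alternative chosen after seeing the data. Of 260 alternative values for the 20 named genes, 241 kept their direction and their side of the threshold. This count says little of stability. None of the 20 passed the threshold in the main fit, and most alternatives reused all 4 libraries, EV RV replicate 1 among them. The cause of the reversals was not tested beyond which library was left out.

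No source says that the replicate numbers in the titles mark a shared mouse or day. For that reason the numbers were not taken as pairs. Deviations from the group means correlated at 0.39 over all genes, with only 2 pairs. The 12 proliferation genes summed to 1408 TPM in EV1 and 1498 in Tox1, against 2196 in EV2 and 2201 in Tox2. NK cell markers were higher in replicate 1 of both groups. Whether the numbers mark a shared mouse, day or batch was not tested. With the replicate number as a block, the median log2 fold change of the 55 was 0.25. With 2 libraries per group and a median standard error of 0.20 for the 55 genes, differences of the size seen here did not pass the adjusted threshold. The lowest count of any of the 55 in a library was 578.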
